A study of Homo sapiens with 6 samples.

Results

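The 39 genes described here encode the enzymes of glycolysis and of the pentose phosphate pathway, the kinases and phosphatases that set pyruvate dehydrogenase, and the lactate transporters. They were taken by symbol from a deposited count table of 19009 genes, and all 39 were found. The table holds messenger RNA counts from RCC10, an established human line of clear cell renal carcinoma. The 6 libraries form 3 groups of 2. DKO cells were transduced with guide RNA lentivirus against HIF-1alpha and HIF-2alpha and selected with puromycin. VHL cells received a lentivirus carrying VHL, and WT cells are the parental line. All were grown in DMEM with FBS. Clone or pool is not stated for the DKO cells in the sources used here. None of the libraries is labelled as a control for the guide RNA or the vector, so effects of transduction and selection cannot be told apart from those of the targeted genes.

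Glycolysis splits glucose into pyruvate, which is either reduced to lactate and exported or oxidised in mitochondria, while the pentose phosphate pathway branches off at glucose 6-phosphate to supply NADPH and ribose. Many of these steps are catalysed by isoenzymes, products of separate genes that differ in kinetics, tissue and regulation. Hypoxia-inducible factors (HIFs) are transcription factors known to raise many glycolytic transcripts, and VHL is the part of a ubiquitin ligase that marks their alpha subunits for degradation, so clear cell renal carcinoma cells without VHL are known for a glycolytic expression pattern.

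Library totals lay between 22248126 and 29929116 counts, at which 3 counts, taken as the detection floor, equal 0.101 to 0.132 CPM (counts per library size after TMM scaling). EPAS1, which encodes HIF-2alpha, was at 44.4 and 48.0 CPM in DKO cells, 363 and 369 CPM in VHL cells, and 352 and 349 CPM in WT cells. HIF1A was at 29.6 and 31.6 CPM in DKO cells, 304 and 286 CPM in VHL cells, and 69.5 and 72.9 CPM in WT cells. VHL was at 43.3 and 47.4 CPM in DKO cells, 652 and 723 CPM in VHL cells, and 38.8 and 39.5 CPM in WT cells. The targeted transcripts were thus lower but present in DKO cells, and protein was not measured. The renal lineage gene PAX8 averaged 363 CPM in DKO, 407 CPM in VHL and 301 CPM in WT cells, whereas CA9, a defining marker of clear cell renal carcinoma, had no count in DKO and VHL cells and averaged 0.022 CPM in WT cells. EMX2, KRT19 and ANPEP averaged at most 0.679 CPM in any group. The 14 renal and carcinoma markers summed to 7079 to 7085 CPM in DKO, 6096 to 6446 in VHL and 8898 to 8958 in WT libraries. Against WT, 5 of the 14 were called higher and 5 lower in DKO cells, and 4 higher and 6 lower in VHL cells. Of all genes, 26.6% were called higher and 27.5% lower in DKO cells, and 26.5% and 27.7% in VHL cells (adjusted p under 0.05, edgeR). Leukocyte markers summed to 2.41 to 3.56 CPM in DKO, 0.750 to 1.11 CPM in VHL and 0.750 to 1.01 CPM in WT libraries. Fibroblast markers summed to 6.09 to 6.29, 25.8 to 27.3 and 18.04 to 18.2 CPM in the same order of groups, and endothelial markers to at most 1.86 CPM in any library. Their part in the results was not tested. In bulk RNA, fewer cells of a type and less RNA per cell cannot be told apart. Separate cultures are not mentioned in the labels, so a p-value here reflects just the variation among these libraries, possibly technical.

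The core of the HIF binding motif is ACGTG or GCGTG. Both were searched on both strands of the 250 bases before each RefSeq start site (GRCh38.p14), where 36 of the 39 genes matched, with 67 start sites. A CACGTG holds ACGTG on each strand and counts as 2 overlapping matches. ACGTG was present in 24 of the 67 windows (35.8%), against 18.5% of all 35116 windows in the RefSeq table. GCGTG was present in 21 (31.3%), against 32.2% of all windows. Such matches describe letters and do not show binding. The sequences below are printed 5′ to 3′ along the gene's strand, each up to the first annotated exon base in its window, with motif matches in capitals. CACGT and CACGC are the motifs read on the other strand. Matches beyond the printed part of a window are not shown. PFKFB4 holds 1 GCGTG there, at bases -166 to -162 from its start site. The windows of LDHA and PGM2 hold 5 and 3 matches to ACGTG, of which only a part is printed. LDHA, PGK1, PFKFB3 and ALDOA are shown because their transcripts were lower in both engineered lines, LDHB because it moved opposite to LDHA, PDK2, PDP2 and PGM2 as members at least 2-fold apart between the engineered lines that hold ACGTG, and PFKFB4 and TALDO1 as members of these sets without it.
LDHA (chr11:18394313-18394387, plus strand): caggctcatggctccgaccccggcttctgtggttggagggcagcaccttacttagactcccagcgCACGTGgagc
PGK1 (chrX:78103998-78104173, plus strand): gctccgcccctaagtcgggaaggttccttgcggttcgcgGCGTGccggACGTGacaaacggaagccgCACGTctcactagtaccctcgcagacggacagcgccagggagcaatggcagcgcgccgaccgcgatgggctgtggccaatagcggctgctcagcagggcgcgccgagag
PFKFB3 (chr10:6202682-6202865, plus strand): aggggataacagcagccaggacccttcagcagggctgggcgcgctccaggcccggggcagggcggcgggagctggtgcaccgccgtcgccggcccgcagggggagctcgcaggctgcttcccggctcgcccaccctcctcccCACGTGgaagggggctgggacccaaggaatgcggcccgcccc
ALDOA (chr16:30065510-30065672, plus strand): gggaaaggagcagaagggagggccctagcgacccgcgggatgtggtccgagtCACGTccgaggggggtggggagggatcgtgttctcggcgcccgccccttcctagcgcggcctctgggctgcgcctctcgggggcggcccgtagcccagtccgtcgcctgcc
LDHB (chr12:21657972-21658092, minus strand): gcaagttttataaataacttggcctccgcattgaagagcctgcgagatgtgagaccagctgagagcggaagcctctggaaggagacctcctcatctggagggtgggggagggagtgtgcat
PDK2 (chr17:50095101-50095274, plus strand): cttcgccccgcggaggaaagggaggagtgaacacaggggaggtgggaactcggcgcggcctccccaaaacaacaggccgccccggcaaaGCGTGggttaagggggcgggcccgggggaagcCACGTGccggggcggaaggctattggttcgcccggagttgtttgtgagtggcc
PDP2 (chr16:66880265-66880360, plus strand): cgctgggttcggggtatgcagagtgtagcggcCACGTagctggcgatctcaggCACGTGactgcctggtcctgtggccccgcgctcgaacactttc
PGM2 (chr4:37826436-37826632, plus strand): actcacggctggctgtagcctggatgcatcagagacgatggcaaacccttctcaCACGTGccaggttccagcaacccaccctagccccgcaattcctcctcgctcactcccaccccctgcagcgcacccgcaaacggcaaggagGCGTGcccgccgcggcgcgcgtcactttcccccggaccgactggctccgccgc
PFKFB4 (chr3:48557018-48557053, minus strand): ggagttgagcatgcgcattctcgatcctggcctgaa
TALDO1 (chr11:747214-747328, plus strand): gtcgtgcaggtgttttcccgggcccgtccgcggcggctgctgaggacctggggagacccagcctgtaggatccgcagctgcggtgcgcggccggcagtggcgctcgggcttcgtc
Over all members with a start site, ACGTG was found in at least 1 window of 14 of the 17 that were called lower in both engineered lines, and PDK4, PFKFB4 and PFKL had none. It was found for 7 of the other 19, namely GAPDH, BPGM, PGD, PGM2, PFKP, PDK2 and PDP2. Of these, GAPDH was not called against WT, BPGM and PGM2 were called higher in DKO cells, and PGD in both lines. PFKP was called lower in VHL cells alone, PDK2 in DKO cells alone, and PDP2 was lower in DKO and higher in VHL cells. Of the 8 members at least 2-fold apart between DKO and VHL cells, 5 held ACGTG and HK1, PGAM1 and TALDO1 did not. The genes differ in their number of windows, and no test was made of these counts. The share of all genes with ACGTG in any window was not counted, and the 18.5% above is a share of windows.

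Most of the 39 transcripts differed between groups, and the isoenzymes of a step often moved apart. DKO cells differed from WT cells in 31 of 39 members, with 12 higher and 19 lower (adjusted p under 0.05, edgeR quasi-likelihood test, Benjamini-Hochberg over all genes), where 54.1% of the 18273 genes tested were called. Of these, 10 members were lower and 2 were higher by at least 2-fold, against 10.3% and 6.06% of all genes. VHL cells differed from WT cells in 30 members, with 5 higher and 25 lower, against a background of 54.2%. At least 2-fold, 15 members were lower and 2 were higher, against 8.4% and 6.13% of all genes. The median log2 fold change over the members was -0.10 in DKO and -0.52 in VHL cells, and 0.00 over all genes in either comparison. Both comparisons use the same WT libraries, so their values are set side by side and DKO cells were compared with VHL cells directly. That direct comparison called 28 members, 23 of them higher and 5 lower in DKO cells, against a background of 56%. The libraries of the groups did not overlap for 34 members in DKO against WT, 32 in VHL against WT and 31 in DKO against VHL cells, where 71.6%, 72.2% and 72.6% of all genes did not. All 39 passed the requirement of at least 1 count. The members took 2.84% and 2.72% of all counts in DKO libraries, 2.47% and 2.63% in VHL libraries, and 3.29% and 3.22% in WT libraries.

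**Figure D1:**
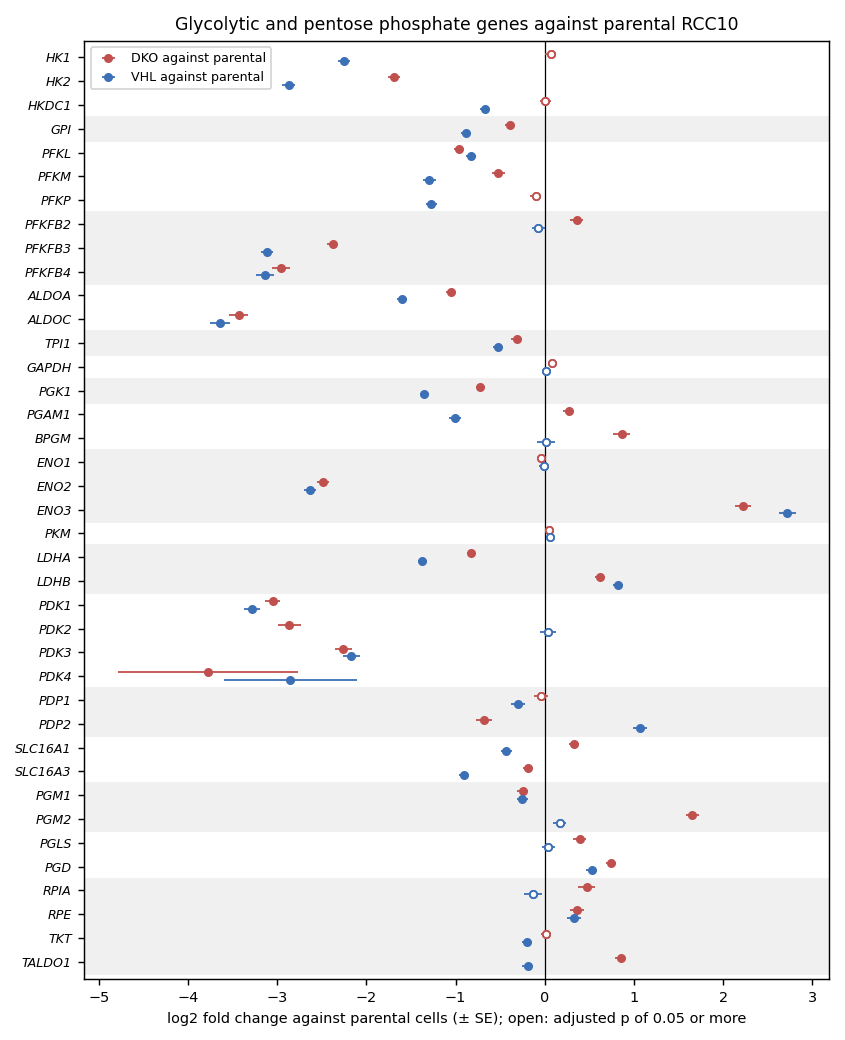
Log2 fold change of each of the 39 transcripts against parental (WT) cells, with DKO in red and VHL in blue, bars giving the SE of the fit on 2 libraries a group and open points an adjusted p of 0.05 or more. ALDOC lies at -3.44 in DKO and -3.64 in VHL cells, while ENO3 lies at 2.22 and 2.72.

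Hexokinases phosphorylate glucose and so commit it to the cell. HK2, the inducible form, was lower in both engineered lines, with 47.9 and 46.2 CPM in DKO cells, 20.9 and 20.7 CPM in VHL cells, and 154 and 150.2 CPM in WT cells. HK1, the widely expressed form, had 283 and 259.9 CPM in DKO cells, 56.5 and 52.5 CPM in VHL cells, and 259 and 259.9 CPM in WT cells. HK1 therefore stood apart in VHL cells, where both libraries were far below the other 4. The HK2 transcript fell 3.24-fold in DKO cells (log2 fold change -1.69 ± 0.07, adjusted p = 6.4e-20, edgeR) and 7.31-fold in VHL cells (-2.87 ± 0.07, adjusted p = 6.3e-25, edgeR). For HK1 the difference was 0.07 ± 0.06 in DKO cells (adjusted p = 0.383, edgeR) and -2.25 ± 0.06 in VHL cells (adjusted p = 2.1e-23, edgeR), and DKO exceeded VHL 4.98-fold (adjusted p = 1.6e-23, edgeR). HKDC1, a hexokinase-like protein, was at 188 and 179 CPM in DKO, 114 and 115 CPM in VHL and 187 and 178 CPM in WT cells. It fell in VHL cells by 0.67 on the log2 scale (adjusted p = 4.4e-11, edgeR), while DKO and WT libraries overlapped (0.01, adjusted p = 0.969, edgeR). Divided by the length of the principal GENCODE 29 transcript, HK2 made up 6.12% ± 0.137 of hexokinase transcript in DKO, 7.24% ± 0.0366 in VHL and 17.8% ± 0.0780 in WT cells (SD, n = 2). HKDC1 held the largest of the 3 shares in VHL cells, at 62.4% ± 1.22, against 37.3% ± 0.559 in DKO and 33.5% ± 0.760 in WT cells. With coding lengths in place of whole transcripts the HK2 share was 9.38% in DKO, 10.96% in VHL and 25.6% in WT cells. GPI, the isomerase of the next step, fell by 0.39 in DKO and by 0.88 in VHL cells on the log2 scale (adjusted p = 3.5e-07 and 1.1e-14, edgeR).

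**Figure D2:**
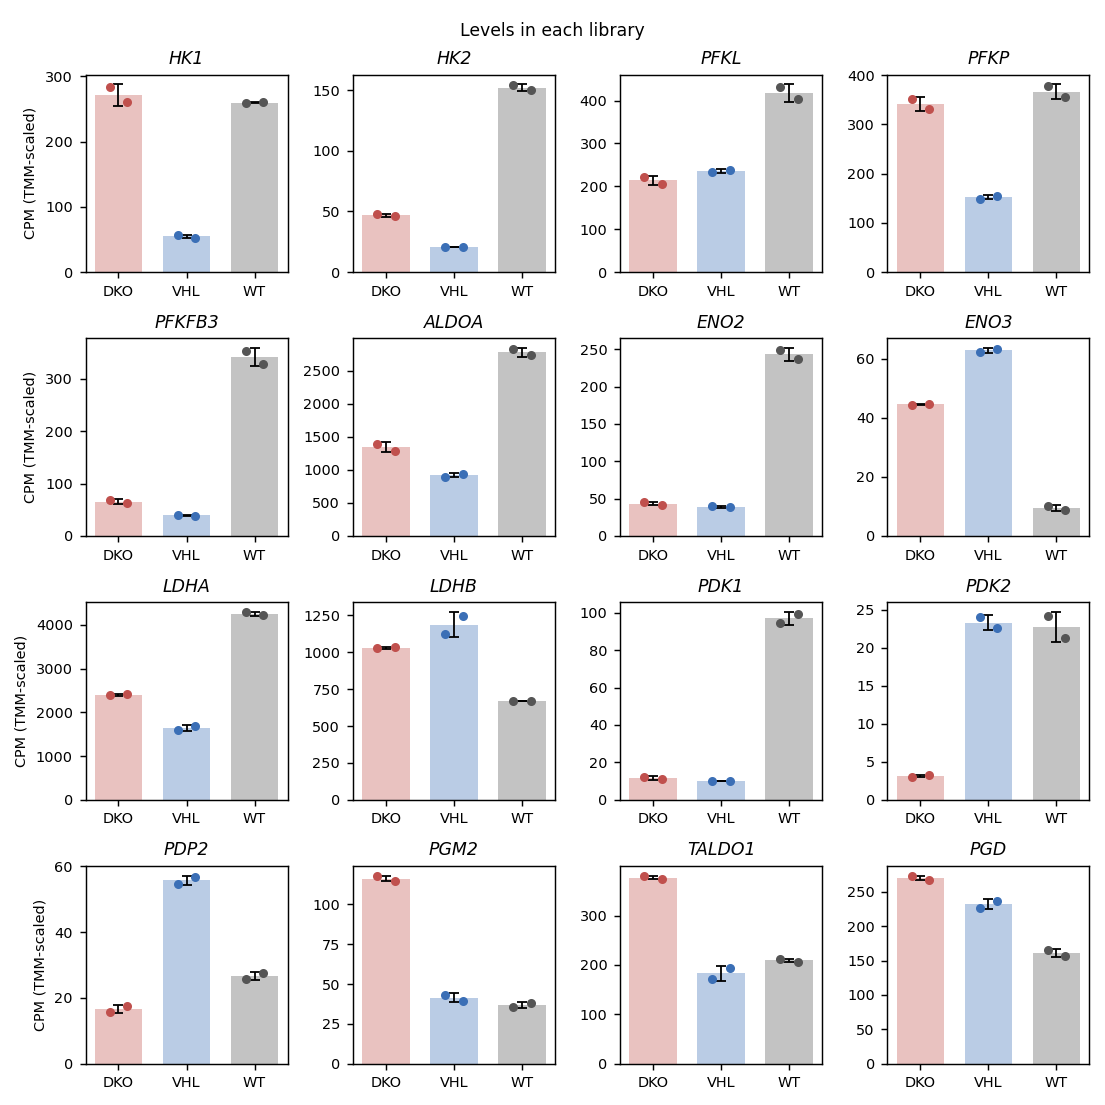
CPM of 16 transcripts in each library, with DKO in red, VHL in blue and WT in grey; points are libraries, bars the mean of 2 and error bars the SD. HK1 is near 55 CPM in VHL cells and above 250 CPM in the others, while PDK2 is near 3 CPM in DKO cells and above 20 CPM in the others.

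Phosphofructokinase-1, the committing step of glycolysis, is built from liver (PFKL), muscle (PFKM) and platelet (PFKP) subunits. PFKL was at 222 and 206.5 CPM in DKO cells, 232 and 239 CPM in VHL cells, and 433 and 403 CPM in WT cells. PFKP was at 351 and 332 CPM in DKO cells, 149 and 154.5 CPM in VHL cells, and 378 and 356 CPM in WT cells. All 4 engineered libraries were thus below WT for the liver subunit, while for the platelet subunit the VHL libraries stood far below the other 4. PFKL fell by 0.96 in DKO cells and by 0.83 in VHL cells (log2, adjusted p = 4.0e-15 and 1.9e-13, edgeR). PFKP differed by -0.10 ± 0.06 in DKO cells (adjusted p = 0.135, edgeR) and fell by 1.27 in VHL cells (adjusted p = 4.6e-18, edgeR), and it was 2.25-fold higher in DKO than in VHL cells (adjusted p = 4.0e-17, edgeR). PFKM fell by 0.52 and 1.30 in DKO and VHL cells (adjusted p = 1.4e-07 and 7.6e-16, edgeR). Per length, PFKP supplied 59.2% ± 0.221 of the 3 subunits' transcript in DKO, 38.9% ± 0.178 in VHL and 45.5% ± 0.0556 in WT cells. PFKL supplied 33.8% ± 0.228, 55.1% ± 0.0141 and 47.3% ± 0.294 in the same groups. The small PFKL difference between DKO and VHL cells (-0.14, adjusted p = 0.0472, edgeR) lost its call without WT replicate 1, WT replicate 2, DKO replicate 2 or VHL replicate 2 and in a fit of those groups alone, with adjusted p from 0.0823 to 0.334.

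The bifunctional PFKFB enzymes make and remove fructose 2,6-bisphosphate, the strongest activator of phosphofructokinase-1. PFKFB3, a form with high kinase activity, was at 68.8 and 62.3 CPM in DKO cells, 39.99 and 38.8 CPM in VHL cells, and 354 and 329 CPM in WT cells. PFKFB4 was at 8.89 and 8.55 CPM in DKO cells, 6.55 and 8.86 CPM in VHL cells, and 68.2 and 67.3 CPM in WT cells. Each was far below WT in all 4 engineered libraries. PFKFB3 fell 5.21-fold in DKO cells (-2.38 ± 0.06, adjusted p = 5.8e-24, edgeR) and 8.66-fold in VHL cells (-3.11 ± 0.07, adjusted p = 2.3e-26, edgeR). PFKFB4 fell 7.77-fold and 8.79-fold (adjusted p = 4.4e-22 and 1.5e-22, edgeR). PFKFB2, the heart form, did not follow them. It was 1.28-fold higher in DKO cells (adjusted p = 9.9e-05, edgeR) and 1.05-fold lower in VHL cells, which did not pass (adjusted p = 0.465, edgeR). Its per-length share of the 3 transcripts was 31.1% ± 1.80 in DKO, 34.2% ± 1.80 in VHL and 5.92% ± 0.0958 in WT cells, or 42.3%, 46.01% and 9.35% with coding lengths.

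Aldolases split fructose 1,6-bisphosphate. ALDOA, the main glycolytic form, was at 1395 and 1286 CPM in DKO cells, 896 and 937 CPM in VHL cells, and 2827 and 2733 CPM in WT cells. ALDOC, the brain form, was at 5.23 and 5.05 CPM in DKO cells, 4.44 and 4.47 CPM in VHL cells, and 56.0 and 55.3 CPM in WT cells. No engineered library reached WT for either gene. ALDOA fell 2.07-fold and 3.03-fold in DKO and VHL cells (adjusted p = 2.8e-17 and 8.2e-22, edgeR), and ALDOC fell 10.8-fold and 12.5-fold (adjusted p = 6.4e-24 and 2.5e-24, edgeR). ALDOA nevertheless made up 99.7% of aldolase A and C transcript per length of the principal transcript in DKO, 99.6% in VHL and 98.3% in WT cells. TPI1, triose-phosphate isomerase, fell by 0.32 and 0.52 on the log2 scale (adjusted p = 1.9e-05 and 3.2e-09, edgeR).

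The later steps of glycolysis held members that did not pass beside members that fell. GAPDH, which had the most counts of all members in each library, was at 8814 and 8297 CPM in DKO cells, 7861 and 8432 CPM in VHL cells, and 8191 and 7958 CPM in WT cells. PKM, pyruvate kinase, lay between 5369 and 5943 CPM in the 6 libraries, and ENO1, the common enolase, between 3507 and 3822 CPM. Their log2 differences between any pair of groups ranged from -0.04 to 0.08 and none passed; GAPDH in DKO against WT cells had the smallest adjusted p, 0.144 (edgeR), and was called without VHL replicate 1 or 2 and in a fit of those groups alone (adjusted p from 0.0226 to 0.0233), as it was in DKO against VHL cells without VHL replicate 2 (adjusted p = 0.00644). PGK1, which makes ATP from 1,3-bisphosphoglycerate, was at 701 and 695 CPM in DKO cells, 444 and 460.4 CPM in VHL cells, and 1165 and 1141 CPM in WT cells. It fell 1.65-fold and 2.55-fold (adjusted p = 2.2e-13 and 5.9e-20, edgeR). PGAM1, phosphoglycerate mutase, moved in opposite directions in the engineered lines. It was at 119 and 118.5 CPM in DKO cells, 47.2 and 50.7 CPM in VHL cells, and 101 and 96.5 CPM in WT cells, higher by 0.27 in DKO cells (adjusted p = 0.000662, edgeR) and lower in VHL cells (log2 -1.01, adjusted p = 3.8e-14, edgeR). BPGM, which makes 2,3-bisphosphoglycerate, was 1.82-fold higher in DKO cells (adjusted p = 2.5e-09, edgeR) and 1.01-fold higher in VHL cells, which did not pass (adjusted p = 0.945, edgeR).

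The minor enolases moved in opposite directions. ENO2, the neuronal form, was at 44.9 and 41.7 CPM in DKO cells, 40.1 and 38.4 CPM in VHL cells, and 249.5 and 237 CPM in WT cells. ENO3, the muscle form, was at 44.5 and 44.7 CPM in DKO cells, 62.4 and 63.5 CPM in VHL cells, and 10.2 and 8.73 CPM in WT cells. ENO2 fell 5.62-fold and 6.195-fold in DKO and VHL cells (adjusted p = 3.1e-24 and 1.0e-24, edgeR), whereas ENO3 rose 4.70-fold and 6.63-fold (adjusted p = 1.3e-19 and 3.8e-22, edgeR). Per length of the principal transcript, ENO3 exceeded ENO2 in both engineered lines. The shares were 1.85% ± 0.0824 against 0.965% ± 0.0106 in DKO and 2.54% ± 0.0905 against 0.854% ± 0.0675 in VHL cells. In WT cells ENO3 held 0.371% ± 0.0280 and ENO2 5.12% ± 0.00811. With coding lengths the ENO3 share in DKO cells was 1.21% ± 0.0540, against 1.17% ± 0.0124 for ENO2. In DKO replicate 1 the order was reversed, with 1.167% for ENO3 and 1.178% for ENO2. Which of them had the larger share in DKO cells thus depends on the length and library used.

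**Figure D3:**
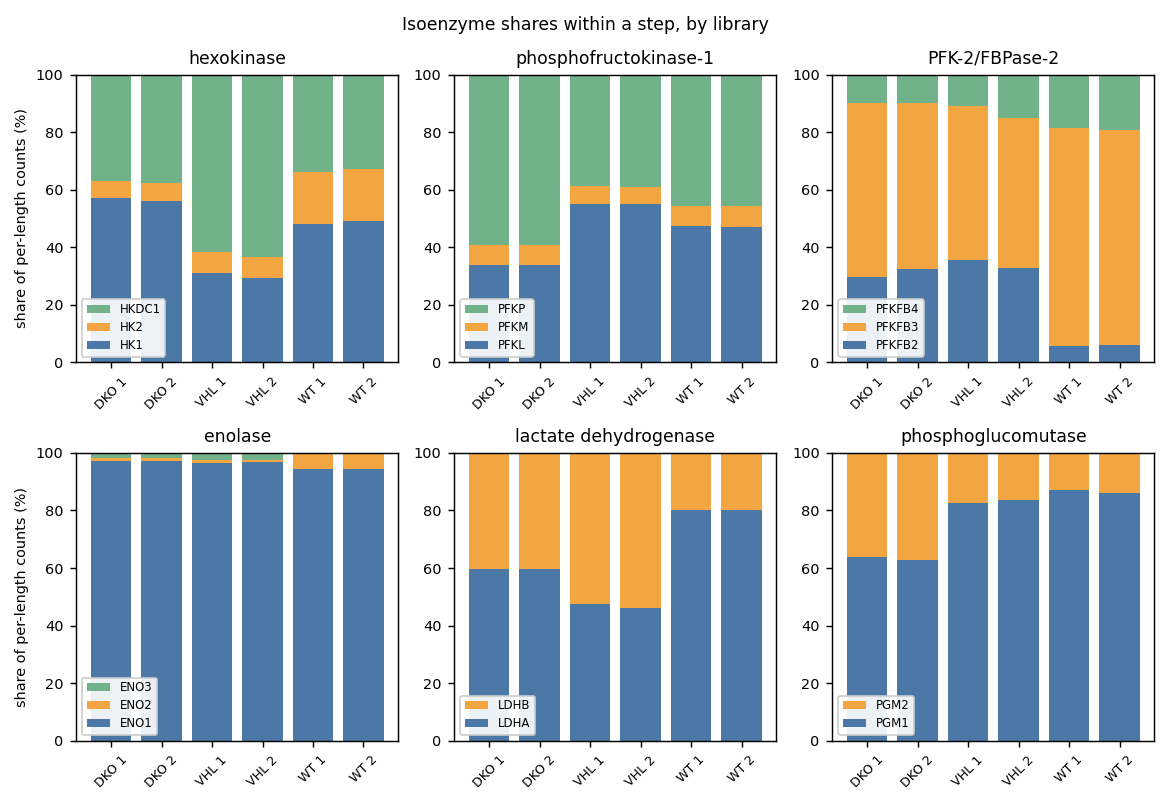
Share of each isoenzyme in the per-length counts of its step (%), by library, with lengths of the principal GENCODE 29 transcript. LDHB takes 40.3% of the lactate dehydrogenase bar in DKO, 53.2% in VHL and 19.9% in WT cells, and PGM2 takes 36.5%, 17.01% and 13.3% of the phosphoglucomutase bar.

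Lactate dehydrogenase is a tetramer of A subunits, which are known to favour lactate formation, and B subunits, which favour its oxidation. LDHA was at 2389 and 2411 CPM in DKO cells, 1598 and 1686 CPM in VHL cells, and 4287 and 4224 CPM in WT cells. LDHB was at 1026 and 1036 CPM in DKO cells, 1127 and 1250 CPM in VHL cells, and 673 and 670.2 CPM in WT cells. Every engineered library lay below WT for LDHA and above WT for LDHB. LDHA fell 1.77-fold in DKO cells (-0.83 ± 0.05, adjusted p = 1.6e-15, edgeR) and 2.59-fold in VHL cells (-1.37 ± 0.05, adjusted p = 5.2e-21, edgeR). LDHB rose 1.54-fold and 1.77-fold (adjusted p = 2.4e-11 and 3.7e-14, edgeR). The LDHB to LDHA count ratio was 0.429 in DKO, 0.723 in VHL and 0.158 in WT cells. The per-length LDHA share was 59.7% ± 0.00432 in DKO, 46.8% ± 0.894 in VHL and 80.1% ± 0.123 in WT cells. With coding lengths it was 70.1%, 58.2% and 86.4%, so which subunit had the larger share in VHL cells depends on the length used.

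Monocarboxylate transporters carry lactate across the membrane. SLC16A3, encoding the export form MCT4, fell by 0.90 on the log2 scale in VHL cells (adjusted p = 2.3e-14, edgeR), with 361 and 327 CPM in DKO, 209 and 211 CPM in VHL, and 387 and 399 CPM in WT cells. Its fall of 0.19 in DKO cells (adjusted p = 0.00591, edgeR) was lost without WT replicate 1, WT replicate 2 or DKO replicate 2, with adjusted p from 0.0644 to 0.141. SLC16A1, encoding MCT1, was at 253 and 256 CPM in DKO, 151.4 and 150.8 CPM in VHL, and 204 and 203 CPM in WT cells. It rose by 0.32 in DKO cells and fell by 0.43 in VHL cells (adjusted p = 1.2e-05 and 1.3e-07, edgeR).

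Pyruvate dehydrogenase kinases switch off the entry of pyruvate into the citric acid cycle, and PDP1 and PDP2 are the phosphatases that reverse them. PDK1 was at 12.3 and 10.99 CPM in DKO cells, 10.05 and 9.86 CPM in VHL cells, and 94.7 and 99.5 CPM in WT cells. PDK3 was at 8.27 and 9.52 CPM in DKO cells, 9.66 and 9.22 CPM in VHL cells, and 42.3 and 42.7 CPM in WT cells. PDK2 was at 3.01 and 3.26 CPM in DKO cells, 24.002 and 22.7 CPM in VHL cells, and 24.2 and 21.3 CPM in WT cells. PDK1 and PDK3 were thus low in both engineered lines, and PDK2 was low in DKO libraries while VHL and WT libraries overlapped. PDK1 fell 8.32-fold and 9.75-fold in DKO and VHL cells (adjusted p = 3.9e-24 and 1.1e-24, edgeR). PDK3 fell 4.78-fold and 4.50-fold (adjusted p = 1.6e-19 and 3.5e-19, edgeR). PDK2 fell 7.25-fold in DKO cells (adjusted p = 2.6e-19, edgeR), was 1.03-fold higher in VHL cells without passing (adjusted p = 0.791, edgeR), and was 7.44-fold lower in DKO than in VHL cells (adjusted p = 2.0e-19, edgeR). PDK4, the form known for its induction by fasting, was near the floor, with 3 and 0 counts in DKO, 4 and 2 counts in VHL, and 22 and 20 counts in WT libraries. Its summed counts were 14.7-fold lower in DKO than in WT cells (95% counting interval 4.70 to 74.2) and 7.48-fold lower in VHL cells (3.16 to 21.5), intervals that cover counting error only.

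Of the kinases, 4 of 4 fell in DKO and 3 of 4 in VHL cells, and of the phosphatases PDP2 fell in DKO and PDP1 in VHL cells. The share of all genes called lower was 27.5% in DKO and 27.7% in VHL cells. Among the kinases that fell, PDK4 was near the floor. PDP2 was at 15.9 and 17.5 CPM in DKO cells, 54.8 and 56.8 CPM in VHL cells, and 25.9 and 27.6 CPM in WT cells. It fell by 0.68 in DKO cells (adjusted p = 4.8e-08, edgeR) and rose by 1.06 in VHL cells (adjusted p = 3.2e-13, edgeR). PDP1 differed by -0.04 in DKO cells (adjusted p = 0.657, edgeR) and fell by 0.30 in VHL cells (adjusted p = 0.00106, edgeR).

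In DKO cells both members of the oxidative pentose phosphate branch and 3 of 4 of the non-oxidative branch rose, whereas in VHL cells 1 of 2 and 1 of 4 rose and 2 of the 4 fell. Over all genes 26.6% were called higher in DKO cells, and in VHL cells 26.5% were called higher and 27.7% lower. PGD, the second NADPH-producing dehydrogenase of the oxidative branch, was at 272 and 268 CPM in DKO cells, 227 and 237 CPM in VHL cells, and 165 and 157 CPM in WT cells. TALDO1, transaldolase of the non-oxidative branch, was at 379.7 and 374 CPM in DKO cells, 172 and 193.5 CPM in VHL cells, and 211 and 207 CPM in WT cells. PGD was thus above WT in all 4 engineered libraries and TALDO1 in DKO libraries alone. PGD rose 1.68-fold and 1.44-fold in DKO and VHL cells (adjusted p = 1.7e-12 and 4.0e-09, edgeR). TALDO1 rose 1.80-fold in DKO cells (adjusted p = 1.4e-13, edgeR), and its fall of 0.19 in VHL cells (adjusted p = 0.00739, edgeR) was lost without WT replicate 1, WT replicate 2 or VHL replicate 1 (adjusted p from 0.0907 to 0.153). PGLS, the lactonase, and RPIA, ribose 5-phosphate isomerase, rose by 0.39 and 0.47 in DKO cells (adjusted p = 1.9e-05 and 8.5e-05, edgeR), with 0.04 and -0.13 in VHL cells, neither past the threshold. RPE, the epimerase, rose by 0.36 in DKO cells and by 0.33 in VHL cells (adjusted p = 0.000107 and 0.000394, edgeR), the call in VHL cells being lost without WT replicate 1 (adjusted p = 0.0565). TKT, transketolase, differed by 0.01 in DKO cells (adjusted p = 0.866, edgeR) and fell by 0.20 in VHL cells (adjusted p = 0.00217, edgeR), a call also lost without WT replicate 1 (adjusted p = 0.0829).

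Phosphoglucomutases link glucose 6-phosphate with glycogen, and PGM2 also acts on ribose phosphates. PGM2 was at 117.5 and 115 CPM in DKO cells, 43.4 and 39.3 CPM in VHL cells, and 35.7 and 38.3 CPM in WT cells, so both DKO libraries stood far above the other 4. It rose 3.14-fold in DKO cells (1.65 ± 0.07, adjusted p = 8.7e-19, edgeR) and was 1.12-fold higher in VHL cells, which did not pass (adjusted p = 0.0687, edgeR) but was called in 5 alternative fits, among them that without VHL replicate 2 (adjusted p from 0.0179 to 0.0427). PGM1, the main form, fell by 0.25 in DKO cells and by 0.25 in VHL cells (adjusted p = 0.000606 and 0.000554, edgeR).

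Set against each other, the engineered lines differed at least 2-fold in 8 members, with 6 higher and 2 lower in DKO cells, against 7.18% and 9.45% of all genes. HK1, PGM2, PGAM1, HK2, PFKP and TALDO1 were 4.98-fold, 2.81-fold, 2.43-fold, 2.26-fold, 2.25-fold and 2.06-fold higher in DKO than in VHL cells. PDK2 and PDP2 were 7.44-fold and 3.34-fold lower in DKO than in VHL cells. ENO3, LDHB and PFKL were also lower in DKO cells, by 0.50, 0.20 and 0.14 on the log2 scale (adjusted p = 6.6e-07, 0.00168 and 0.0472, edgeR). LDHA, ALDOA and PGK1 were higher in DKO cells by 0.55, 0.55 and 0.63. The calls of TPI1 and PDP1, at 0.20 and 0.26, were lost without DKO replicate 1 (adjusted p = 0.119) and without VHL replicate 2 (adjusted p = 0.0532). ALDOC, ENO2, PFKFB4, PDK1 and PDK3 did not pass, with differences of 0.21, 0.14, 0.18, 0.23 and -0.09 (adjusted p from 0.0545 to 0.51, edgeR).

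**Figure D4:**
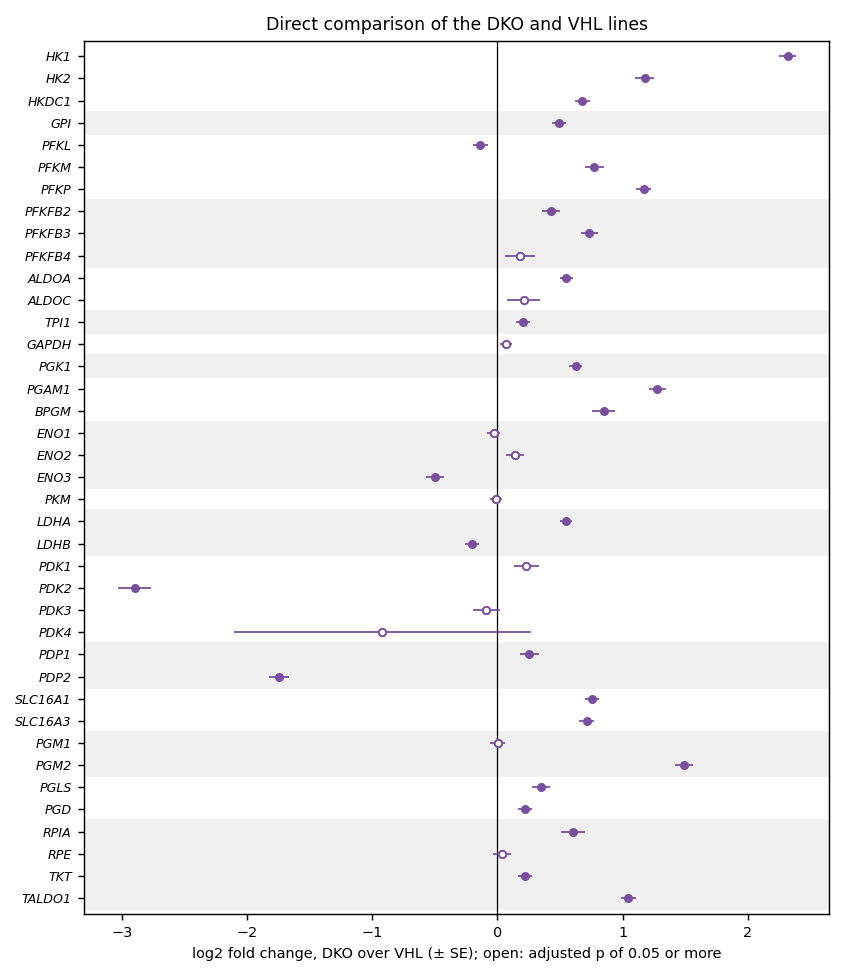
Log2 fold change of DKO over VHL cells for each of the 39 transcripts, with the SE of the fit on 2 libraries a group and open points for an adjusted p of 0.05 or more. HK1 lies farthest right at 2.32 and PDK2 farthest left at -2.90.

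The balance within a step was also followed as a count ratio in each library, for 10 pairs and 30 comparisons. In 27 of the 30 the libraries of the groups did not overlap, and each of these reached 0.333, the smallest p that an exact two-sided permutation test of 2 against 2 libraries allows (0.370 after adjustment), so no ratio could pass a threshold of 0.05. HK2 to HK1 was 0.173 in DKO, 0.382 in VHL and 0.587 in WT cells. PFKP to PFKL was 1.59 in DKO, 0.644 in VHL and 0.878 in WT cells. PDK1 to PDK2 was 3.72 in DKO, 0.427 in VHL and 4.28 in WT cells, with DKO and WT libraries overlapping. ENO2 to ENO1 was 0.0120 in DKO, 0.0106 in VHL and 0.0653 in WT cells.

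Genes around these pathways were counted in the same fits. Among 23 isoenzymes and partners outside the 39, 4 rose and 4 fell in DKO cells and 5 rose and 4 fell in VHL cells, a smaller share called than the 54.1% and 54.2% of all genes. TIGAR, a fructose 2,6-bisphosphatase, averaged 77.6 ± 6.01 CPM in DKO, 73.4 ± 0.556 CPM in VHL and 14.9 ± 0.465 CPM in WT cells (adjusted p = 1.7e-21 and 4.7e-21 against WT, edgeR). SLC16A7, encoding the pyruvate and lactate transporter MCT2, averaged 1.52 ± 0.317 CPM in DKO, 4.04 ± 0.508 CPM in VHL and 10.3 ± 0.348 CPM in WT cells (adjusted p = 7.9e-16 and 2.1e-10 against WT, edgeR). Of 10 genes for pyruvate entry into mitochondria, 2 rose and 2 fell in DKO cells and 2 rose and 4 fell in VHL cells. Of 8 genes of gluconeogenesis, 2 rose and 2 fell in DKO cells and 1 rose and 2 fell in VHL cells. The median log2 fold changes of these lists were -0.01, 0.07 and -0.36 in DKO cells and -0.08, -0.03 and -0.18 in VHL cells, and 0.00 over all genes. The gluconeogenesis medians include FBP1, FBP2 and PCK1, with at most 2 counts in any library, below the detection floor. FBP2 and PCK1 entered at -2.37 and -3.22 in both comparisons. PCK2, G6PC3, SLC37A4, MDH1 and GOT1 were at 0.75, -0.67, -0.92, -0.04 and 0.25 in DKO cells. The list of isoenzymes and partners also holds genes below that floor, among them HK3, GAPDHS and TKTL1.

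Reads of GAPDH, LDHA, LDHB, PGAM1, ALDOA, TPI1, PGK1, ENO1 and PKM may be shared with processed pseudogenes, and how shared reads were counted was not given in the sources used here, so their levels are uncertain to that extent. The splice forms of PKM are not separated in the table.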

How the data were processed

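The authors deposited 1 table of whole-number counts per gene symbol for 6 poly(A) RNA libraries, whose columns name the samples. Per the submitters' processing notes the tools included limma 3.58.1, featureCounts 2.0.8, HISAT2 2.2.1, Trimmomatic 0.39 and FastQC 0.74. The notes list hg19 and hg38, with no word on the build behind the counts. Strand settings were not given in the sources used here. Although the deposited table is called normalized, its counts are whole numbers with unequal totals and were taken as raw.

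Of 19009 genes, the 18273 with at least 1 count were fitted with edgeR 4.0.16 in R 4.3.3 (TMM scaling, 3 group means, quasi-likelihood F test, prior count 0.125), with Benjamini-Hochberg adjustment at 0.05. Folds are ratios of mean CPM and SEs come from the fit. The biological coefficient of variation was 4.41%. Alternatives were other scalings, filterByExpr, DESeq2 1.42.0, limma-voom, a replicate block, fits on only the groups compared, a prior count of 2 and leaving out each library. Per-length shares used GENCODE 29 lengths, and the alternatives of exon union and coding length were chosen after seeing the data. Promoters came from RefSeq. The members and lists were chosen with earlier results of these data known. All members are described, and genes of the other lists are named as up to 3 per comparison with the largest change among those past 0.05 without overlap, of which a selection is printed.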

Additional observations from a re-analysis of the deposited data

How the results depend on the processing

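Called members numbered 30 to 32 in DKO against WT cells, 27 to 31 in VHL against WT cells and 27 to 29 in DKO against VHL cells over all alternatives run. No called member changed direction in any of them, and no count moved by more than 1.5 times. Over all genes, leaving out 1 library gave 7974 to 10134, 7891 to 9671 and 9019 to 9679 calls in these comparisons. With the replicate number as a block, 31, 31 and 29 members and 10112, 10148 and 10458 genes were called. The deviations of same-numbered libraries had correlations of 0.299 (DKO and WT), -0.00965 (VHL and WT) and -0.00954 (DKO and VHL) over 9804 genes. The main fit did not pair the libraries by number, although same-numbered DKO and WT libraries shared part of their deviation. The source of that shared part was not tested.

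The sign of some members that did not pass depended on the setting, and the cause was not tested. In DKO against WT cells, upper-quartile scaling gave -0.022 for HKDC1 and -0.015 for TKT (log2). In VHL against WT cells ENO1 was 0.033 with library-median scaling, 0.0056 with upper-quartile scaling and 4.8e-05 with filterByExpr. In DKO against VHL cells PGM1 was -0.036, -0.045, -0.0063 and -0.0046 with library-median scaling, upper-quartile scaling, filterByExpr and only the groups compared. RPE was -0.0020 with library-median and -0.011 with upper-quartile scaling. Leaving out 1 library at a time gave -0.031 to 0.048 for HKDC1, -0.087 to 0.00061 for ENO1, -0.0086 to 0.10 for PKM and -0.031 to 0.058 for TKT in DKO against WT cells. In VHL against WT cells it gave -0.020 to 0.055 for BPGM, -0.064 to 0.037 for ENO1, -0.039 to 0.063 for GAPDH and -0.044 to 0.14 for PDK2. In DKO against VHL cells it gave -0.080 to 0.022 for ENO1, -0.19 to 0.012 for PDK3, -0.022 to 0.41 for PFKFB4, -0.048 to 0.050 for PGM1, -0.070 to 0.041 for PKM and -0.053 to 0.12 for RPE. The log2 difference in the PFKFB4 to PFKFB3 count ratio between VHL and WT cells ranged from -0.28 to 0.20, and that in SLC16A3 to SLC16A1 between DKO and VHL cells from -0.12 to 0.038.

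With 2 libraries a group, depth limits PDK4, whose counts were at or near the floor in the engineered lines. PDK1 in DKO against VHL cells was called in 3 alternatives and PFKFB4 without VHL replicate 2.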

Other observations

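Over all genes, 26.6% were called higher and 27.5% lower in DKO than in WT cells, 26.5% higher and 27.7% lower in VHL than in WT cells, and 28% higher and 28% lower in DKO than in VHL cells, which is the background of the counts given here. Of 20 glycogen genes, 2 rose and 12 fell in DKO cells, and 3 rose and 12 fell in VHL cells, with median log2 fold changes of -0.34 and -0.46, against 0.00 over all genes. PPP1R3C, a subunit that targets protein phosphatase 1 to glycogen, averaged 3.39 ± 0.537 CPM in DKO, 5.54 ± 0.401 CPM in VHL and 31.9 ± 1.71 CPM in WT cells (SD, n = 2 each). PYGL, liver glycogen phosphorylase, averaged 147 ± 0.565 CPM in DKO, 56.3 ± 1.38 CPM in VHL and 168 ± 2.51 CPM in WT cells. GYG1, the primer of glycogen chains, was higher, at 91.2 ± 3.64 CPM in DKO, 55.0 ± 2.04 CPM in VHL and 27.3 ± 1.63 CPM in WT cells. All 3 passed 0.05 in each comparison (edgeR).

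Of 8 hexosamine and polyol genes, 4 rose and 1 fell in DKO cells and 2 rose and 5 fell in VHL cells, and 6 were higher in DKO than in VHL cells. UAP1, which makes UDP-N-acetylglucosamine, averaged 202 ± 6.56 CPM in DKO, 55.7 ± 0.492 CPM in VHL and 85.4 ± 2.52 CPM in WT cells. Of 10 serine and glycerol branch genes, 4 rose and 1 fell in DKO cells and 3 rose and 3 fell in VHL cells. SHMT1, a serine hydroxymethyltransferase, averaged 48.5 ± 0.722 CPM in DKO, 178 ± 0.484 CPM in VHL and 153 ± 3.85 CPM in WT cells. Of 13 reference genes often used to scale expression, 6 rose and 3 fell in DKO cells and 3 rose and 6 fell in VHL cells. ACTB, beta-actin, averaged 7254 ± 208 CPM in DKO, 4207 ± 157 CPM in VHL and 4282 ± 340 CPM in WT cells.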
